A study of Homo sapiens with 3 samples.

Results

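The circular RNAs (circRNAs) of human chromosome 12 are described here along the chromosome, by host gene. They were taken as every listed circRNA whose position lies on chromosome 12, which gave 479 of 10562 in the series. They came from 231 annotated host genes, and 14 of them had no annotated host gene. CircRNAs were measured in 1 library each of SV-HUC-1, an immortalized cell line from urothelium, and of J82 and T24, a pair of bladder cancer lines. No treatment is named for any of them, and every library was made from total RNA after depletion of ribosomal RNA and digestion of linear RNA with the exonuclease RNase R. With 1 library per line, differences between lines could not be checked against replicates. The chromosome was chosen by the folds of its host genes along position in J82 and T24, so these folds, and those between the cancer lines, are given as descriptions, without a test.

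A circRNA forms when a downstream splice donor joins an upstream acceptor of the same transcript (back-splicing), which leaves a closed ring without ends. Its amount depends on how much the host gene is transcribed, on how often the exons back-splice and on how slowly the ring is lost. Chromosome 12 carries keratin genes of simple epithelia and, on its long arm, the region around CDK4 and MDM2, which is amplified in many kinds of tumour. The amount of genomic DNA was not measured here.

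A cluster of neighbouring host genes on the long arm held several of the widest differences of J82 from SV-HUC-1. It runs from NUP107, a scaffold protein of the nuclear pore, over MDM2, the ubiquitin ligase that targets p53, and CPSF6, a subunit of the complex that cleaves pre-mRNA before polyadenylation, to CNOT2, which belongs to the CCR4-NOT complex that shortens poly(A) tails. Their promoters are printed because the circular reads of all 4 stood above SV-HUC-1 in J82 and because a circRNA can only form from a transcribed gene. Each promoter window covers 250 bases before to 50 after a transcript start of the gene on GRCh38.p14 (RefSeq), plus strand. This start need not be the first of the gene, and promoters at other starts were not searched. The windows are chr12:68686728-68687027 for NUP107, chr12:68808774-68809073 for MDM2, chr12:69239319-69239618 for CPSF6 and chr12:70243183-70243482 for CNOT2. Capitals mark the GC box GGGCGG and the CCAAT box CCAAT, searched on both strands.
NUP107: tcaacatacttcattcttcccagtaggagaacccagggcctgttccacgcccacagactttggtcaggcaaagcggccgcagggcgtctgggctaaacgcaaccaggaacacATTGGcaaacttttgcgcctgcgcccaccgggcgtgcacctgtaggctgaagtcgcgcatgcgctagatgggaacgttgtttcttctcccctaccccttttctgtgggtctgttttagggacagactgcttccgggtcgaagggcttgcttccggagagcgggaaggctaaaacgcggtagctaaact
MDM2: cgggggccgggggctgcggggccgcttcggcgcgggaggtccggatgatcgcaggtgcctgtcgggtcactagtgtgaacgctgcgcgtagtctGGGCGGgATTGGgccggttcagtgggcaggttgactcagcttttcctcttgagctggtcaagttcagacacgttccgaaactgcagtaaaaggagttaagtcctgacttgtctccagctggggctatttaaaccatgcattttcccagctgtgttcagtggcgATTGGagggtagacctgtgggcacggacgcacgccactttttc
CPSF6: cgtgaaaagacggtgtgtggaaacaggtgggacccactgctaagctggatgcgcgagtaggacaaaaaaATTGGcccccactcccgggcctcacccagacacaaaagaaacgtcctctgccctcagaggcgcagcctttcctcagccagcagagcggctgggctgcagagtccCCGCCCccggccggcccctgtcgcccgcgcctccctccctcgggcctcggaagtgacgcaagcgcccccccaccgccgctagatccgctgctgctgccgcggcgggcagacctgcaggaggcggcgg
CNOT2: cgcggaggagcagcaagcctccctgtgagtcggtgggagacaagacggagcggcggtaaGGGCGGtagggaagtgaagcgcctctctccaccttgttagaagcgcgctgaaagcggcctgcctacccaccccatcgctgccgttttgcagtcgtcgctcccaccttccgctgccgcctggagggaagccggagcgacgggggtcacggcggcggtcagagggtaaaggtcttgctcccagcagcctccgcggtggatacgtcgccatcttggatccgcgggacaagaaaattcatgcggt
The window of NUP107 held 0 GC boxes and 1 CCAAT box. That of MDM2 held 1 and 2, that of CPSF6 1 and 1, and that of CNOT2 1 and 0. Of the 231 host genes on the chromosome, 196 were matched to such a window. A GC box was present in 71.9% of them, against 45% of all 35116 windows of the same length. A CCAAT box was present in 36.2%, against 34.6%. The 35116 windows were not limited to genes with a listed circRNA, so the sets are unlike, and host genes of other chromosomes were not compared. These are matches of letters, and no binding was measured.

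SV-HUC-1 had 3812 reads on chromosome 12 circRNAs, J82 had 5213 and T24 had 4148. These were 2.98% of all circRNA reads in SV-HUC-1 (95% exact binomial interval 2.88 to 3.07), 4.14% in J82 (4.03 to 4.25) and 3.82% in T24 (3.71 to 3.94). Both cancer lines stood above SV-HUC-1 by more than counting error. In bulk RNA, fewer cells with a circRNA and fewer copies per cell cannot be told apart. The circRNA reads of the whole library came to 128055 (SV-HUC-1), 126041 (J82) and 108574 (T24), so T24 gave the least precise values. Wherever 3 counts of reads are given for a gene or circRNA below, they are in this order of the lines. As a check of the lines, 8 of 16 urothelial and epithelial marker genes had a listed circRNA. All 8 had reads in SV-HUC-1 and J82 and 3 of 8 in T24, with summed levels of 19.1, 9.05 and 0.679 CPM. T24 therefore carried few circular reads of epithelial genes. Of 4 blood and endothelial genes, 1 was listed, at 0.662, 0.233 and 1.03 CPM. The part of these markers in the differences along the chromosome was not tested.

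The excess over SV-HUC-1 was not spread evenly. On the short arm, which was split from the long arm at 36 Mb of hg19, the share of circRNA reads was 0.487% in SV-HUC-1 (0.449 to 0.526), 0.799% in J82 (0.751 to 0.85) and 0.785% in T24 (0.733 to 0.839). From 36 to 80 Mb it was 0.544% (0.504 to 0.585), 1.06% (1 to 1.12) and 0.997% (0.938 to 1.06). Over these stretches both cancer lines had between 1.5 and 2 times the share of SV-HUC-1. From 80 Mb to the end of the long arm it was 1.95% (1.87 to 2.02), 2.28% (2.19 to 2.36) and 2.04% (1.96 to 2.12), so that the interval of T24 overlapped that of SV-HUC-1. The border at 80 Mb was chosen after the values were seen.

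Detection followed the same order. Of the 479 circRNAs, 394 were seen in the SV-HUC-1 library, 441 in that of J82 and 403 in that of T24, and 331 (69.1%) were found in every line, against 69.9% over the whole table. J82 alone held 33 of them (6.89%, against 3.25% over the whole table). SV-HUC-1 alone held 8 (1.67%, against 3.74%) and T24 alone 10 (2.09%, against 2.24%). SV-HUC-1 was the 1 line without reads for 42 (8.77%, against 5.59%). In structure the chromosome's circRNAs spanned a median of 4119 bases of genome, with quartiles of 1685 and 10762, against 6133 on the other chromosomes. A start or end shared with another circRNA was found for 47%, against 56.2%. CircBase IDs were given for 88.1%, against 86.2%, and 128 of the 231 host genes had a single circRNA.

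For folds, the CPM values of all circRNAs from a host gene were added up, and a host gene was called measured where 1 or both of the libraries compared held 10 reads or more. Of 231 host genes, 138 were measured in at least 1 comparison and 93 stayed below that level. Higher and lower mean a difference of 2-fold or more on the scale of log2(CPM + 0.0234), where 0.0234 CPM is 1 read of T24. In J82 against SV-HUC-1, 49 of 127 measured host genes were higher, which is 38.6%, against 18.5% of all 2651 measured host genes of the table. Only 12 were lower, or 9.45%, against 19.5% of all. The median log2 fold was 0.59, against -0.03 over the table. The exact 95% counting interval of the ratio also left out 1 for 42 of the higher and 9 of the lower host genes. This was counted only among host genes already past 2-fold on this chromosome, and the count over the table was not made. It is therefore not read as a trait of the chromosome.

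In T24 against SV-HUC-1, 33 of 118 measured host genes (28%) were higher, against 18.7% of all 2615, and 18 (15.3%) were lower, against 22.1%. The median log2 fold was 0.26, against -0.04 over the table. In J82 against T24, 40 of 128 (31.2%) were higher in J82, against 20.7% of all 2517, and 12 (9.38%) lower, against 16.6%, with a median of 0.26 against 0.01. Over the table, 37.3% of host genes were at least 2-fold apart between the cancer lines. The comparisons of J82 and T24 with SV-HUC-1 share the SV-HUC-1 library, so a host gene with few reads there stands high in both. The comparison of J82 with T24 does not use that library.

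Among the 22 autosomes, chromosome 12 had the highest share of higher host genes in J82 against SV-HUC-1. By median fold it had rank 2, after chromosome 4, where 30 of 86 host genes (34.9%) were higher and the median was 0.76. In T24 it had rank 4 by the share of higher host genes and rank 3 by median, after chromosome 4 (0.68) and chromosome 11 (0.49). In J82 against T24 it had rank 2 by the share of higher host genes and rank 5 by median. These ranks are a description of 3 libraries.

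**Figure D1:**
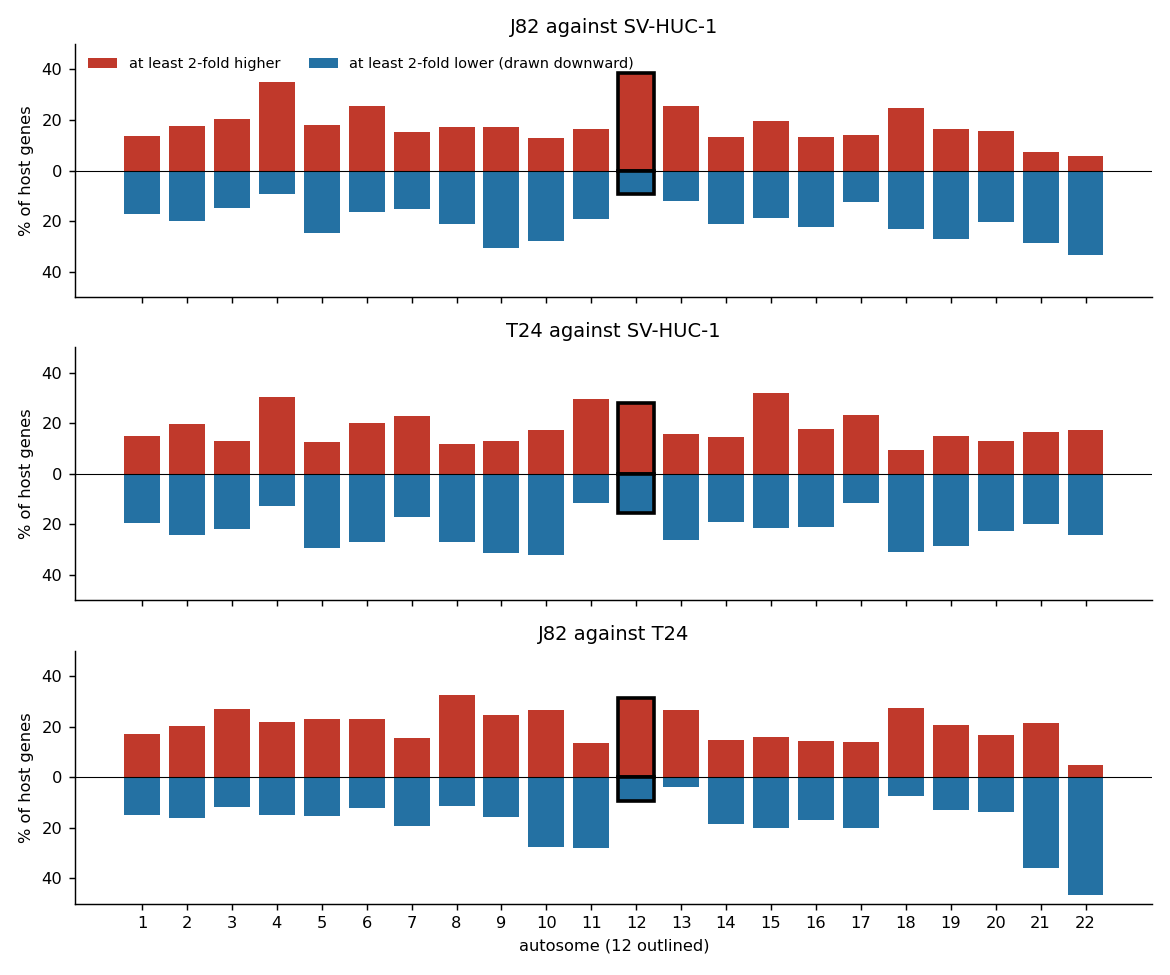
Share of measured host genes at least 2-fold higher (upward) or at least 2-fold lower (downward) in percent, by autosome, for the 3 comparisons. Chromosome 12, outlined, reaches 38.6% higher in J82 and 28% in T24 against SV-HUC-1.

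J82 and T24 both stood high up to 80 Mb, and beyond it the median of T24 lay below 0. Up to 80 Mb, 35 of 63 measured host genes were higher in J82 and 2 lower, relative to SV-HUC-1, with a median log2 fold of 1.18. These shares were 55.6% and 3.17%, against 18.5% and 19.5% over the table. In T24, 27 of 57 were higher (47.4%, against 18.7%) and 2 lower (3.51%, against 22.1%), with a median of 0.96. In both lines most of these higher host genes had fewer than 10 reads in SV-HUC-1. They counted as measured through the cancer line, where they were high. Host genes with few reads that were low there, such as IGFBP6 (7, 1 and 0 reads), were left out. The filter therefore has a part in these counts and medians. Beyond 80 Mb the medians were 0.10 in J82 and -0.33 in T24. In J82, 14 of 64 were higher (21.9%, against 18.5%) and 10 lower (15.6%, against 19.5%), near the shares over the table. In T24, 6 of 61 were higher (9.84%, against 18.7%). Lower in T24 were 16 (26.2%), near the 22.1% over the table. In J82 against T24 the medians were 0.19 up to 80 Mb and 0.50 beyond it. There, 20 of 58 host genes were higher in J82 (34.5%, against 20.7% over the table) and 2 lower (3.45%, against 16.6%). With the border at 70 or 90 Mb, also chosen after the values were seen, the medians up to it were 1.19 and 1.13 in J82 and 0.98 and 0.85 in T24, and those beyond it 0.19 and 0.10 in J82 and -0.29 and -0.33 in T24.

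In stretches of 10 Mb, the median log2 fold of J82 against SV-HUC-1 lay between 0.59 and 1.58 in each of the 8 stretches up to 80 Mb. Beyond these it was 0.23, -0.30, 0.65, 0.02, -0.14 and -0.23. For T24 the first 8 medians lay between 0.53 and 1.88 and the last 6 were -1.80, -1.12, -0.14, -0.38, -0.32 and -0.04. With a filter of 20 reads, the median for 30 to 40 Mb was 0.11 in J82 and -0.35 in T24, and that for 20 to 30 Mb in T24 was 0.03. The stretch from 80 to 90 Mb rests on 4 host genes in J82 and 3 in T24, and that from 60 to 70 Mb on 7 and 4. A running median over 9 neighbouring host genes first went below 0 at KITLG (88.92 Mb) in J82 and at POC1B (89.86 Mb) in T24. In T24 it reached its lowest value, -1.29, at VEZT and CDK17. Signs of single neighbours were only loosely shared. Across 126 pairs of adjacent host genes in J82 against SV-HUC-1, Spearman's rho of their folds was 0.13, and over 117 pairs in T24 it was 0.25, against 0.16 and 0.15 on the other chromosomes. Adjacent genes share the 2 libraries, and genes are not independent replicates.

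**Figure D2:**
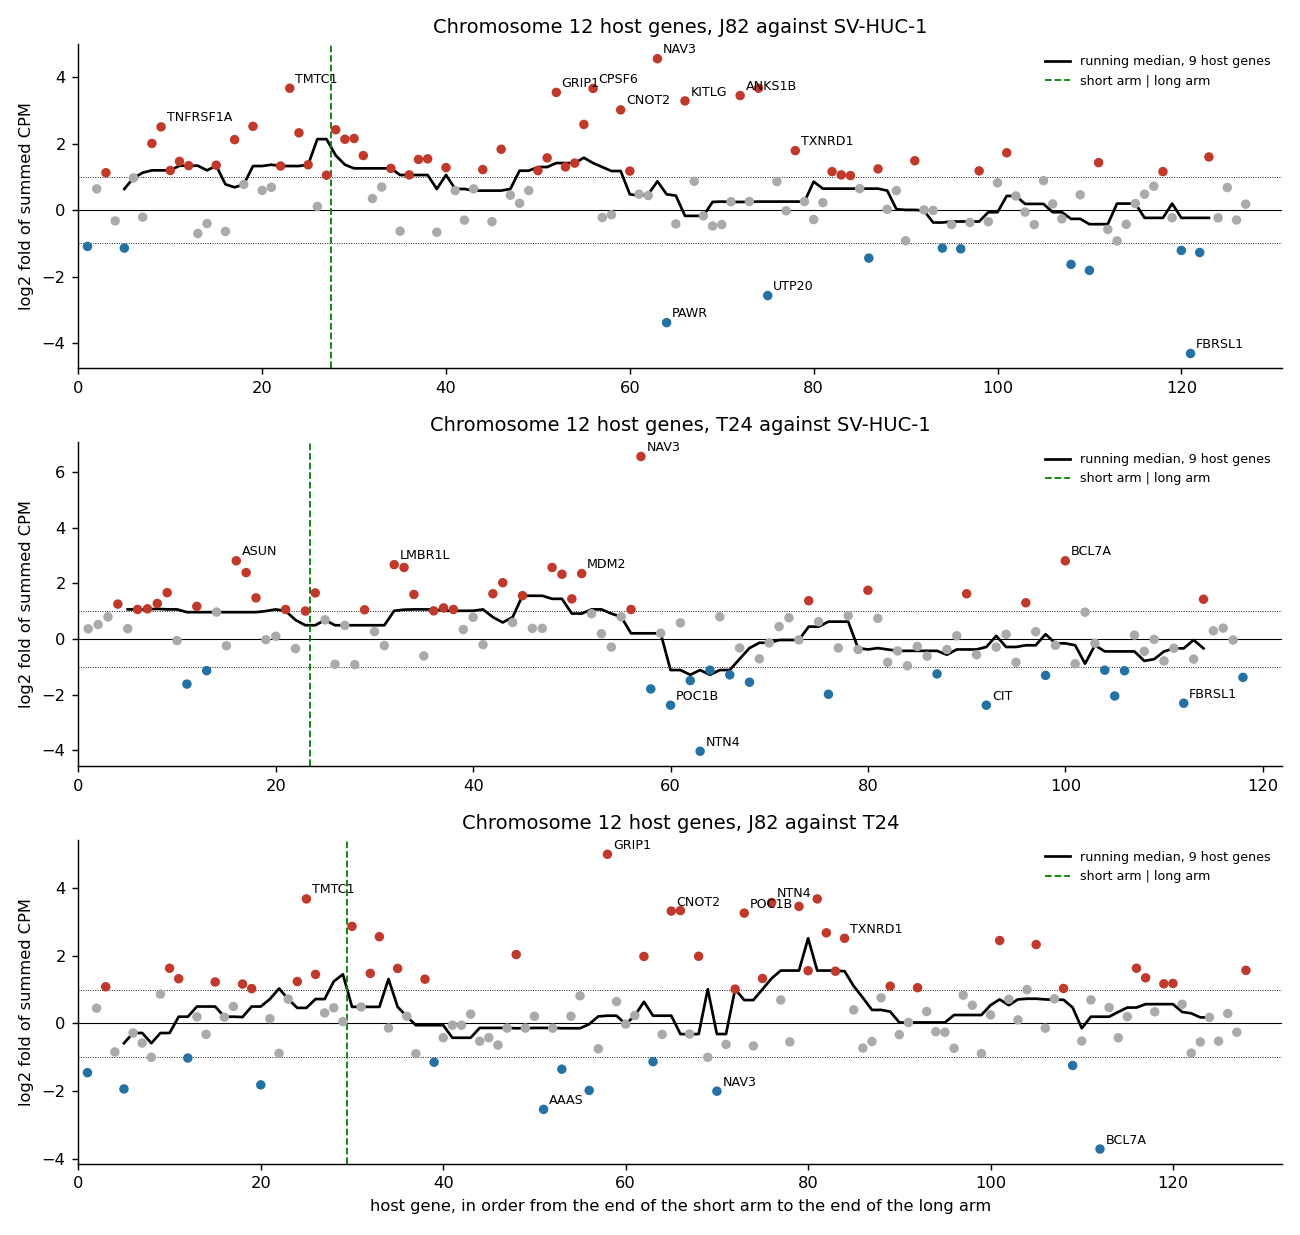
Log2 fold of summed CPM for each measured host gene of chromosome 12 in order of position, in 3 panels, one for each pair of lines. Red points are at least 2-fold higher, blue points at least 2-fold lower, the black line is the running median over 9 host genes and the dashed line divides the arms. The running median of both cancer lines against SV-HUC-1 lies above 0 on the left and first goes below 0 past NAV3. NAV3 has the highest point in J82 (4.56) and in T24 (6.55).

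**Figure D3:**
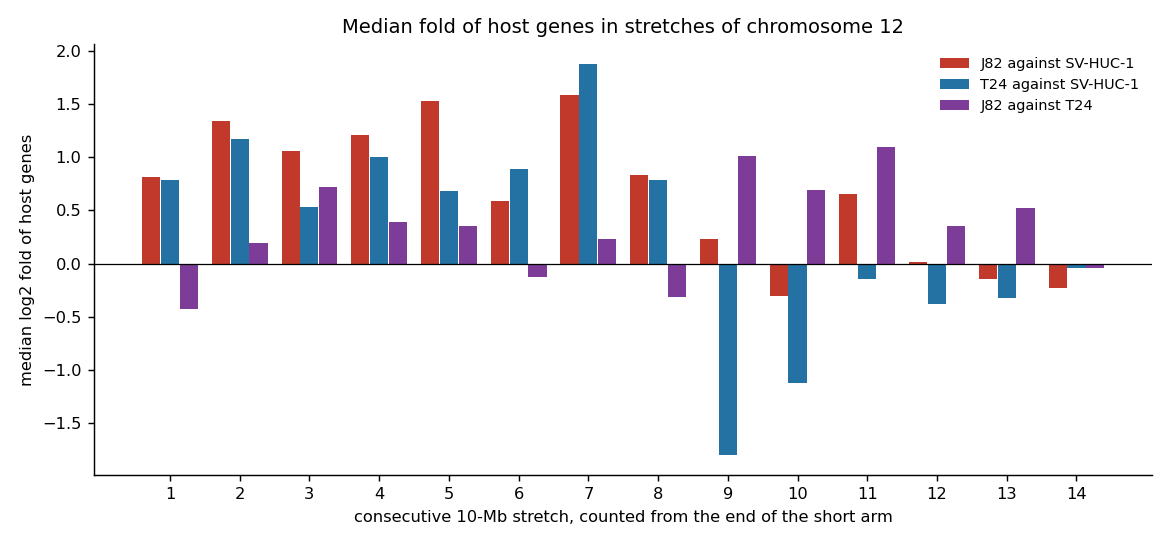
Median log2 fold of the measured host genes in 14 consecutive stretches of 10 Mb, for the 3 comparisons. In stretches 1 to 8 both cancer lines stand above SV-HUC-1, and from stretch 9 on T24 stands at or below 0.

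On the short arm, 14 of 27 measured host genes were higher in J82 (51.9%, against 18.5% over the table) and 2 lower (7.41%, against 19.5%). In T24, 10 of 23 were higher (43.5%, against 18.7%) and 2 lower (8.7%, against 22.1%). The read filter has a part in these counts as well. The longest run of consecutive measured host genes there that were all at least 2-fold higher in J82 held TEAD4, TNFRSF1A, NCAPD2, ETV6 and LRP6. Runs skip host genes with too few reads, and between NCAPD2 and ETV6 these included CHD4 (6, 0 and 4 reads), ING4 (6, 7 and 4) and MLF2 (6, 6 and 12). TEAD4, a DNA-binding partner of the Hippo pathway coactivator YAP, had 2, 11 and 5 reads. TNFRSF1A, a receptor for tumour necrosis factor, had 2, 16 and 4, a ratio of J82 to SV-HUC-1 of 8.43 (1.98 to 75.6). J82 was the highest of the 3 lines for both. LRP6, a coreceptor for Wnt ligands, had 18, 45 and 51 reads, with ratios of 2.63 (1.49 to 4.83) in J82 and 3.30 (1.90 to 6.01) in T24, whereas ETV6, an ETS family repressor, had 8, 23 and 18. Both cancer lines exceeded SV-HUC-1 for these 2 genes, by more than counting error.

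Farther along the short arm stood AEBP2, a cofactor of the Polycomb repressive complex that methylates histone H3, with 45, 111 and 88 reads in SV-HUC-1, J82 and T24. Its ratios were 2.60 (1.82 to 3.76) in J82 and 2.28 (1.58 to 3.34) in T24. TM7SF3, a membrane protein with 7 membrane-spanning segments, had 8, 49 and 40 reads over its 7 circRNAs, with ratios of 6.45 (3.03 to 15.8) and 5.83 (2.69 to 14.4). Both genes were higher in both cancer lines, with ratios of J82 to T24 of 1.14 (0.854 to 1.52) and 1.11 (0.714 to 1.72). CCDC91, a Golgi trafficking protein, had 60, 145 and 55 reads and was 2.55-fold (1.87 to 3.50) higher in J82, with a ratio of 1.07 (0.728 to 1.57) in T24. TMTC1, an endoplasmic reticulum mannosyltransferase, had 13 reads in J82 and 0 in the other lines, so J82 exceeded SV-HUC-1 at least 4.57-fold when the empty library is set to a floor of 3 reads. ASUN, an Integrator subunit, showed the opposite order of the cancer lines, with 1, 3 and 12 reads and a ratio of 14 (2.07 to 598) in T24. ARNTL2, a partner of the circadian CLOCK protein, had 24, 35 and 59 reads and was 2.87-fold (1.76 to 4.82) higher in T24.

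At the very end of the short arm the pattern was weaker. ERC1, a scaffold of the cell cortex and of the presynaptic active zone, had 157, 119 and 193 reads, with ratios of 0.799 (0.624 to 1.02) in J82 and 1.43 (1.16 to 1.78) in T24. KDM5A, a histone H3 demethylase, had 17, 7 and 19 reads, and the adiponectin receptor gene ADIPOR2 had 13, 5 and 20. Both were at least 2-fold lower in J82, but with intervals that took in 1. PLEKHA5, a pleckstrin homology protein, was the lowest of the short arm in T24, with 24, 17 and 6 reads and a value 3.43-fold (1.37 to 10.3) below SV-HUC-1.

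On the long arm next to the centromere, J82 had a run of 5 measured neighbours that were all at least 2-fold higher, counted from DNM1L, the dynamin of mitochondrial fission, on the short arm. It went on with SLC2A13, a proton myo-inositol transporter (2 reads in SV-HUC-1, 15 in J82, 1 in T24), and YAF2, a protein that binds the Polycomb protein RING1 (7, 33 and 21 reads). PPHLN1, or periphilin, had 9, 42 and 13 reads and ANO6, a phospholipid scramblase, 12, 38 and 5. YAF2 was higher in both cancer lines, with ratios of 4.97 (2.16 to 13.3) and 3.50 (1.43 to 9.74). PPHLN1 and ANO6 were at least 2-fold higher in J82 and not in T24, with ratios for J82 of 4.92 (2.36 to 11.5) and 3.34 (1.71 to 7.01), and ANO6 stood 6.87-fold (2.70 to 22.3) above T24. LMBR1L, a lipocalin receptor, had 8, 24 and 49 reads and was among the highest of the chromosome in T24, at 7.14-fold (3.36 to 17.5). TROAP, a spindle protein, had 1, 8 and 10 reads. LARP4, which binds poly(A) tails, had 40, 94 and 70 reads, with ratios of 2.48 (1.69 to 3.68) and 2.04 (1.36 to 3.09). RACGAP1, a component of the central spindle, went the other way with 104, 62 and 58 reads and ratios of 0.628 (0.451 to 0.868) and 0.65 (0.463 to 0.905), short of 2-fold. Without its most abundant circRNA the log2 fold in J82 was -2.45.

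Between 50 and 60 Mb, 3 of 15 host genes measured in J82 against T24 were lower in J82 and 1 higher, with a median of -0.13. Over the table, 16.6% were lower and 20.7% higher. RBMS2, an RNA-binding protein, had 29, 32 and 75 reads and T24 exceeded SV-HUC-1 by 3.02-fold (1.94 to 4.80). PRIM1, the catalytic subunit of DNA primase, had 1, 2 and 10 reads and AAAS, a nuclear pore protein, 2, 1 and 10. The ratios of T24 to SV-HUC-1 were 11.7 (1.66 to 506) and 5.83 (1.24 to 54.7). T24 exceeded J82 by 2.59-fold (1.69 to 4.06) for RBMS2, 5.54-fold (1.18 to 52) for PRIM1 and 11.1-fold (1.57 to 480) for AAAS. KRT7, a keratin of urothelium and other simple epithelia, had 7, 17 and 3 reads and J82 exceeded T24 by 5.12-fold (1.48 to 27.3).

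A list of 57 genes around CDK4 and MDM2 ran from DDIT3 to TRHDE, and 21 of them had a listed circRNA. Its 12 members measured in J82 lay between SRGAP1 at 64.44 Mb and RAB21 at 72.17 Mb, so its values describe that stretch. Of 12 measured in J82 against SV-HUC-1, 8 were higher (66.7%, against 18.5% over the table) and 0 lower (against 19.5%). The 12 had a median log2 fold of 1.36, against 0.59 for all host genes of the chromosome and -0.03 for the table. The list's 8 were SRGAP1, GRIP1, MDM1, NUP107, MDM2, CPSF6, CNOT2 and PTPRR. Among these only CNOT2 had 10 reads or more in SV-HUC-1, so the others counted as measured through J82, where they were high. A member with few reads that was low in J82, such as TRHDE (5, 0 and 1 reads), is left out. The filter therefore has a part in the count and the median. Of 7 measured in T24, SRGAP1, NUP107 and MDM2 were higher (42.9%, against 18.7% over the table) and 0 lower (against 22.1%), with a median of 0.91. All of these higher genes had fewer than 10 reads in SV-HUC-1. The list was put together with earlier results of these data known. CDK4 had no circRNA in the table.

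The longest run of the chromosome lay here. From PTGES3, a cochaperone of HSP90, to CPSF6, all 7 measured neighbours were at least 2-fold higher in J82. Of these, only PTGES3 had 10 reads or more in SV-HUC-1. Host genes with too few reads lie between them, some lower in J82, such as MARS (6, 3 and 6 reads). Others were higher, such as RAP1B (0, 8 and 1). SRGAP1, a GTPase-activating protein of the SLIT and ROBO pathway, had 7, 22 and 34 reads, with ratios of 3.31 (1.37 to 9.18) and 5.66 (2.47 to 15.1). MDM2 had 8, 51 and 39 reads, so that T24, at a ratio of 5.69 (2.62 to 14.1), stood close to J82, with a ratio of J82 to T24 of 1.18 (0.763 to 1.84). These 2 genes were higher in both cancer lines. NUP107 had 4, 12 and 11 reads and MDM1, a microtubule-binding protein of centrioles, 4, 11 and 6. The intervals of both took in 1. CPSF6 had 1, 25 and 5 reads, a ratio of 26.3 (4.31 to 1081) in J82, and GRIP1, a scaffold for glutamate receptors, had 2, 34 and 0, a ratio of 17.9 (4.59 to 154). J82 exceeded T24 for both, by 4.52-fold (1.70 to 15.1) for CPSF6 and, at the floor, by 10.2-fold (limit 7.88) for GRIP1.

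CNOT2 had 26, 208 and 18 reads. J82 stood apart from both other lines, 10.4-fold (6.44 to 18) above T24, while the ratio of T24 to SV-HUC-1 was 0.807 (0.417 to 1.53). The genes on its near side did not share this difference. CCT2, a subunit of the TRiC chaperonin, had 48, 39 and 78 reads, with a ratio of J82 to SV-HUC-1 of 0.856 (0.546 to 1.33). RAB3IP, an exchange factor for RAB8, had 87, 75 and 85 reads, with a ratio of 0.908 (0.658 to 1.25). CCT2 and RAB3IP, at 69.99 and 70.17 Mb, thus lie between CPSF6 at 69.65 Mb and CNOT2 at 70.71 Mb without a 2-fold difference in J82. On the far side, PTPRR, a receptor tyrosine phosphatase, had 4, 10 and 0 reads, and the other measured members, ZFC3H1, an RNA exosome cofactor, and RAB21, an endosomal GTPase, had 17, 23 and 26 and 9, 12 and 2. Both stayed within 2-fold of SV-HUC-1 in J82, and J82 exceeded T24 for RAB21 by 5.42-fold (1.21 to 49.9).

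**Figure D4:**
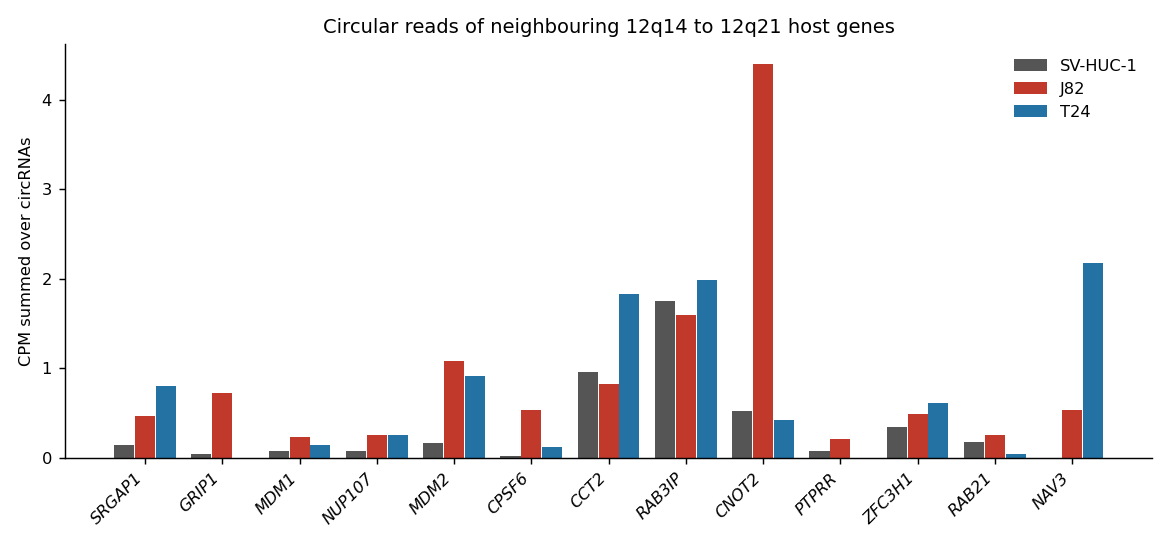
CPM summed over the circRNAs of 13 neighbouring host genes, in order of position, with 1 bar per line. CNOT2 stands at 4.40 CPM in J82 and at 0.522 and 0.421 in SV-HUC-1 and T24, and NAV3 stands at 2.18 CPM in T24 and 0.529 in J82, with 0 for SV-HUC-1.

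The 4 circRNAs of CNOT2 did not all carry the difference in reads to the same degree. The most abundant (hsa_circ_0007127, chromosome 12, 70671911 to 70704797, plus strand) had 25, 178 and 13 reads. Another with the same start (hsa_circ_0027545) had 1, 10 and 0, and one farther downstream (hsa_circ_0027560) had 0, 19 and 0. The last (hsa_circ_0099143) had 0, 1 and 5, below the level for a comparison. The first 3 were thus highest in J82 and the last had most of its reads in T24. In MDM2 the 3 circRNAs had 6, 32 and 23 reads (hsa_circ_0027491), 1, 7 and 10 (hsa_circ_0004448), and 1, 12 and 6 (hsa_circ_0002770). SV-HUC-1 was the lowest for each, and T24 was above J82 for the middle one. The 3 circRNAs of GRIP1 were found in J82 with 5, 9 and 20 reads, and SV-HUC-1 had 2 reads of the last of these (hsa_circ_0099053).

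NAV3, a microtubule plus-end protein first known from neurons, marked the end of the stretch in which both cancer lines stood high. It had 0, 25 and 93 reads over 7 circRNAs. Relative to SV-HUC-1 at the floor, J82 was 8.78-fold (limit 6.63) and T24 36.2-fold (limit 28.8) higher. T24 exceeded J82 by 4.12-fold (2.62 to 6.69). The most abundant in T24 were hsa_circ_0003514, with 31 reads in T24 and 4 in J82, and hsa_circ_0002419, with 29 and 13. In all 7, T24 had the most reads.

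**Figure D5:**
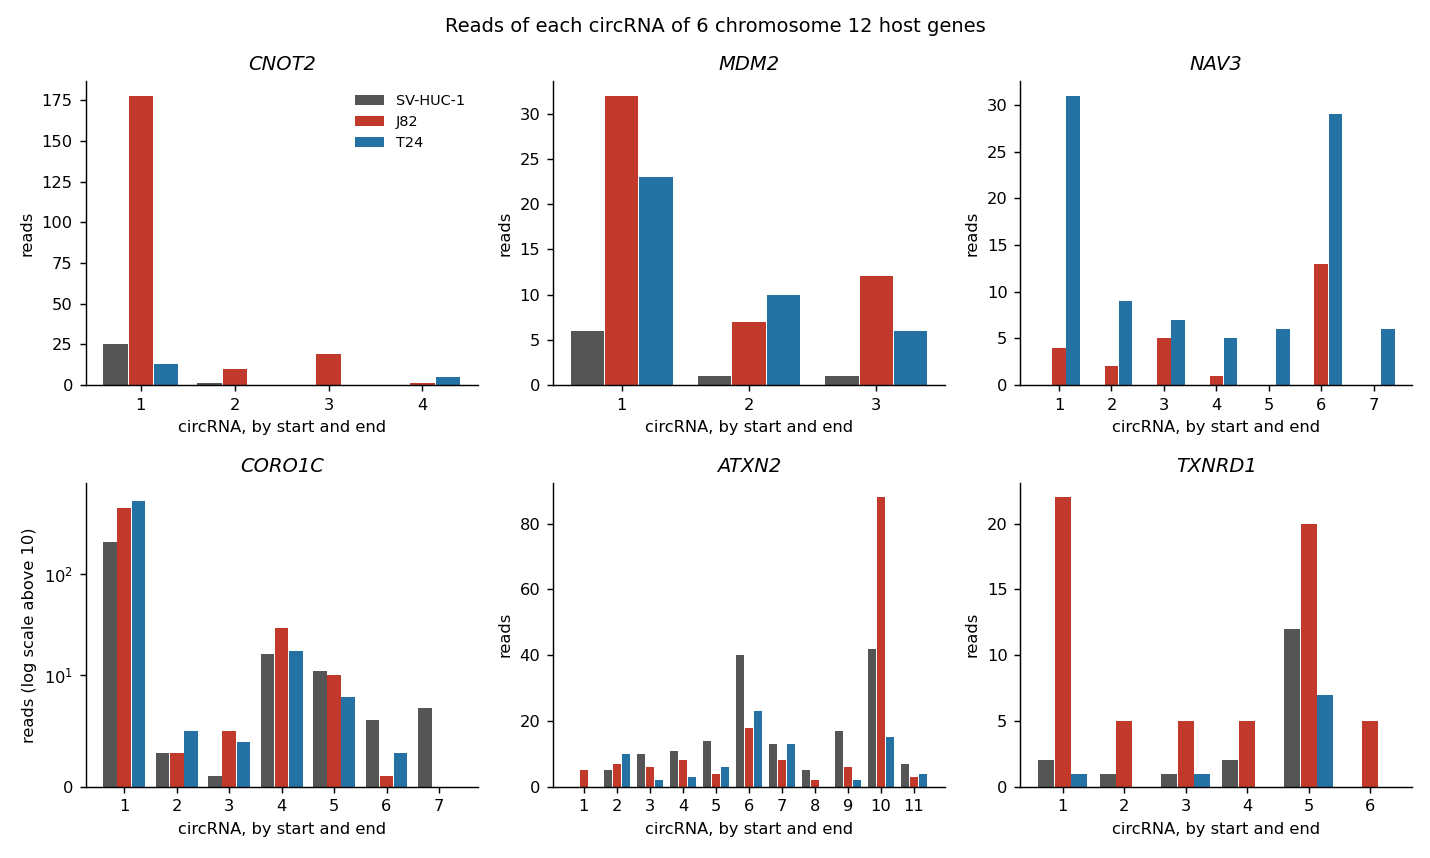
Reads of each listed circRNA of CNOT2, MDM2, NAV3, CORO1C, ATXN2 and TXNRD1, numbered by start and end, with 1 bar per line; the CORO1C axis is logarithmic above 10 reads. CNOT2 circRNA 1 reaches 178 reads in J82, and all 7 of NAV3 are highest in T24.

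Beyond 80 Mb, PAWR, a proapoptotic protein, stood low in both cancer lines with 11, 0 and 2 reads. It was 3.48-fold below SV-HUC-1 in J82 at the floor (limit of the ratio 0.42) and 4.72-fold (1.03 to 43.8) in T24. KITLG, the ligand of the receptor KIT, had 1, 19 and 8 reads, with a ratio of 20 (3.18 to 832) in J82. In T24 its reads were too few to count as measured. POC1B, a centriole protein, had 11, 20 and 1 reads and NTN4, the laminin-related netrin 4, had 18, 12 and 0. Relative to SV-HUC-1, T24 was 9.43-fold (1.37 to 406) lower for POC1B and, at the floor, 5.14-fold lower for NTN4 (limit of the ratio 0.265). CDK17, a cyclin-dependent kinase of the PCTAIRE group, had 70, 49 and 27 reads and was 2.22-fold (1.41 to 3.61) lower in T24, or -0.67 on the log2 scale without its most abundant circRNA. SCYL2, a clathrin-associated pseudokinase, had 56, 64 and 19 and was 2.53-fold (1.48 to 4.50) lower. J82 stayed within 2-fold of SV-HUC-1 for POC1B, NTN4, CDK17 and SCYL2.

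The longest run of measured host genes that exceeded T24 at least 2-fold in J82 followed, with ANKS1B, SCYL2, ANO4, DRAM1, NFYB and TXNRD1. Host genes with too few reads to be measured lie between them, among them UTP20, with 1 read in J82 and 8 in T24. ANKS1B, a postsynaptic scaffold, and ANO4, a relative of ANO6, had 11 and 13 reads in J82 and 0 in both other lines. At the floor they were 3.86- and 4.57-fold higher than in SV-HUC-1 (limits 2.64 and 3.21). DRAM1, a lysosomal protein induced by p53, had 7, 13 and 1 reads and NFYB, a subunit of the factor that binds the CCAAT box, 16, 15 and 4. In SCYL2 and NFYB the difference between the cancer lines came with a T24 value at least 2-fold below SV-HUC-1, and in DRAM1 the T24 reads were too few for that comparison. TXNRD1, the cytosolic thioredoxin reductase, had 18, 62 and 9 reads and J82 exceeded SV-HUC-1 by 3.63-fold (2.12 to 6.52) and T24 by 6.22-fold (3.08 to 14.2). All 6 of its circRNAs had the most reads in J82. The most abundant there, without a circBase ID (chromosome 12, 104682708 to 104683320, plus strand), had 2, 22 and 1 reads. UTP20, of the small-subunit processome, was low in J82 in the same stretch, with 12, 1 and 8 reads, 11.4-fold (1.69 to 487) below SV-HUC-1.

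Farther out, CORO1C gave more reads than any other host gene of the chromosome in every line. It encodes coronin 1C, a regulator of actin branching. It had 253, 496 and 563 reads, or 5.08, 10.5 and 13.2 CPM, with ratios of 2.07 (1.77 to 2.41) and 2.60 (2.23 to 3.02). Nearly all of this came from hsa_circ_0000437 (chromosome 12, 109046047 to 109048186, minus strand), with 209, 448 and 526 reads. Without it, the log2 fold of the host gene was 0.20 in J82 and -0.03 in T24. An upstream circRNA of the same gene (hsa_circ_0008919) had 7 reads in SV-HUC-1 and 0 in both cancer lines. UNG, the uracil DNA glycosylase of base excision repair, was lower in both cancer lines, with 22, 7 and 4 reads, 2.98-fold (1.23 to 8.27) in J82 and 4.72-fold (1.60 to 18.8) in T24.

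From SH2B3 to HECTD4, J82 had no measured host gene at least 2-fold higher. The measured neighbours on either side, FAM216A and TPCN1, were higher (log2 folds 1.49 and 1.19), so the values set these limits. SH2B3, an adaptor that restrains JAK signalling, had 108, 103 and 155 reads. ATXN2, an RNA-binding protein with a polyglutamine tract, had 164, 155 and 78 reads, and T24 reached 0.555 times the level of SV-HUC-1 (0.418 to 0.731). Its summed level hid a difference among its 11 circRNAs. In J82, hsa_circ_0002457 had 88 reads against 42 in SV-HUC-1 (log2 fold 1.12), while hsa_circ_0002273 had 4 against 14 (-1.50) and hsa_circ_0002601 had 18 against 40 (-1.03). Of the 10 circRNAs other than hsa_circ_0002457, 8 had fewer reads in J82 than in SV-HUC-1. NAA25, of the NatB acetyltransferase, had 58, 24 and 41 reads and was 2.29-fold (1.40 to 3.86) lower in J82. TPCN1, an endolysosomal ion channel, had 10, 23 and 3 reads.

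MED13L, a subunit of the kinase module of Mediator, was second to CORO1C in reads, with 247, 416 and 229. Relative to SV-HUC-1, the ratio for J82 was 1.77 (1.51 to 2.09) and that for T24 was 1.08 (0.899 to 1.30). The excess in J82 lay mostly in hsa_circ_0000443, with 134, 281 and 129 reads. Its neighbour with the same end on the genome and a start 100 bases away, hsa_circ_0000442, had 39, 52 and 56. Thus a difference of 100 bases at 1 splice site went with a J82 log2 fold of 1.14 against 0.48. Near the end of the long arm, RILPL1, a ciliary protein that binds RAB8, had 53, 58 and 20 and SBNO1, a helicase-like protein, 23, 16 and 4. Their levels in T24 were 2.27-fold (1.34 to 4.01) and 4.93-fold (1.68 to 19.6) below SV-HUC-1.

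Near the end of the long arm, 3 consecutive measured host genes stood low in J82. SLC15A4, a lysosomal histidine and peptide transporter, had 99, 40 and 67 reads, and was 2.35-fold (1.61 to 3.48) lower in J82. Without its most abundant circRNA its log2 fold in J82 was -0.17. FBRSL1, a protein related to fibrosin, had 22, 0 and 3 reads. It was 6.96-fold lower in J82 at the floor (limit of the ratio 0.192) and 6.29-fold (1.89 to 32.8) lower in T24. POLE, the catalytic subunit of DNA polymerase epsilon, had 22, 8 and 11 reads, 2.61-fold (1.12 to 6.78) lower in J82. These 3 neighbours formed the longest run of lower host genes in J82. RHOF, a GTPase of filopodia, and VPS33A, of the HOPS tethering complex, were also among the lowest in J82, with 22, 6 and 7 and 14, 3 and 6 reads. PGAM5, a mitochondrial phosphatase next to POLE, was higher in both cancer lines, with 11, 34 and 27 reads and ratios of 3.26 (1.61 to 7.12) and 2.86 (1.37 to 6.39). In T24, CIT, the citron kinase of cytokinesis, was among the lowest with 11, 10 and 1 reads. BCL7A, a SWI/SNF subunit, was among the highest with 1, 0 and 12, a ratio of 14 (2.07 to 598).

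In ATXN2, CLIP1, ERC1, FGD4, MED13L and TMEM120B, one circRNA was higher and another lower in the same comparison. In TMEM120B, a membrane protein of the nuclear envelope, 2 circRNAs share a start and split in opposite directions. The shorter (hsa_circ_0006030) had 28, 8 and 31 reads, and the longer (hsa_circ_0029000) had 5, 12 and 3. The longer one's log2 fold was 1.16 in J82 relative to SV-HUC-1, and the shorter one's ratio was 0.301. In FGD4, an exchange factor for CDC42, 2 circRNAs share an end, and the longer (hsa_circ_0025843) had 8, 21 and 7 reads where the shorter (hsa_circ_0000390) had 19, 8 and 13. In ERC1, T24 was high for the downstream hsa_circ_0006747 (6, 9 and 22 reads) and low for an upstream circRNA without a circBase ID (15, 8 and 2). In CLIP1, a microtubule plus-end protein, hsa_circ_0005465 had 10, 18 and 3 reads and hsa_circ_0097597 had 5, 9 and 12.

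By function, the host genes of the chromosome were grouped in 6 further lists, made with earlier results known. Their counts read against 38.6% higher and 9.45% lower for the whole chromosome in J82 (18.5% and 19.5% over the table) and 28% and 15.3% in T24 (18.7% and 22.1%). Of 8 measured genes of RNA binding, processing and decay, 5 were higher in J82 (LARP4, CPSF6, CNOT2, SART3 and DHX37), or 62.5%, and 0 lower, with a median log2 fold of 1.11. In T24, LARP4 and RBMS2 of 7 were higher and 0 lower, with a median of -0.02. Of 19 genes of membrane traffic, cytoskeleton and centrosome, 9 were higher in J82 (47.4%) and 2 lower (UTP20 and VPS33A), with a median of 0.87, or 0.94 with the 3 genes that have a library at 0 reads at their bound. UTP20 is a ribosome assembly protein and does not act in traffic. Among the higher ones, TMTC1 is a mannosyltransferase and ANKS1B a postsynaptic scaffold, so their place in the list is loose as well. Both had 0 reads in SV-HUC-1. In T24, BICD1, an adaptor of dynein, and NAV3 of 15 were higher and POC1B and SCYL2 lower, with a median of 0.09. Both lists stood above the median of the chromosome in J82, 0.59, and below that in T24, 0.26.

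Of 12 kinase, phosphatase and GTPase signalling genes, 5 were higher in J82 (WNK1, LRP6, DENND5B, SRGAP1 and PTPRR) and 0 lower, a share of higher genes, 41.7%, near that of the chromosome, with a median of 0.28. Of 9 in T24, LRP6 and SRGAP1 were higher and PLEKHA5, CDK17 and CIT lower, with a median of 0.19. Of 12 cell cycle, p53 and DNA repair genes, NUP107 and MDM2 were higher in J82 and UNG and POLE lower, with a median of -0.13. Of 13 in T24, PRIM1, NUP107 and MDM2 were higher and CDK17, UNG and CIT lower, with a median of 0.37. This list stood below the chromosome in J82 and above it in T24. Of 7 ubiquitin pathway genes, MDM2 and RNFT2 were higher in J82 and 0 lower (median 0.59), and of 8 in T24 RNF34 joined them (median 0.50). Of 10 chromatin and transcription genes, ETV6 was higher in J82 and KDM5A and BRAP lower (median 0.47). BRAP binds BRCA1 and restrains RAS signalling. Of 11 in T24, ETV6, ATF1 and BCL7A were higher and NFYB and ZNF268 lower (median 0.36).

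The 14 circRNAs without an annotated host gene had at most 9 reads in any line. A group of 3 on the short arm between 5268439 and 5386055 (plus strand) had 5, 6 and 7 reads in J82 and 0 in both other lines. Another (hsa_circ_0097171) had 7 reads in SV-HUC-1 and 0 in both cancer lines. At single circRNAs, 178 of the 479 had at least 10 reads in a line and 301 did not. Of 155 measured in J82 against SV-HUC-1, 61 (39.4%) were higher, against 22.9% of all circRNAs measured, and 18 (11.6%) lower, against 23.3%. Over the table, 46.2% were past 2-fold in one or the other direction. Of 141 in T24, 44 (31.2%) were higher, against 21.4%, and 30 (21.3%) lower, against 27.3%.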

How the data were processed

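The authors deposited 1 table of circRNAs with hg19 positions, circBase IDs, host gene and CPM, named as TMM-normalized CPM; per the submitters' processing notes, the tools included STAR, RSEM 1.2.15, edgeR and Bowtie2 2.1.0, without their roles. Neither the caller of back-splices nor the base from which starts are counted is stated by the labels or headers. All values in each column were whole multiples of the smallest value above 0 (100% of values, tolerance 0.01 reads), so reads were recovered; the step of 1 read was 0.0201 CPM (SV-HUC-1), 0.0211 CPM (J82) and 0.0234 CPM (T24). Every listed circRNA had at least 5 reads in a line. The value columns were matched by name, and 0 stayed unmatched. Reads and CPM were summed per host gene, placed at the midpoint of its circRNAs. Ratios of CPM carry exact 95% counting intervals (Clopper-Pearson). Against a library at 0 reads, a floor of 3 reads in that library was used. Reads carry no molecular identifiers, so intervals and floors cover counting error only. limma 3.58.1 and edgeR 4.0.16 (R 4.3.3) were fitted over all host genes with Benjamini-Hochberg adjustment and checked on simulated data; scipy 1.17.1 gave the intervals. Members and lists were chosen with earlier results of these data known. Genes named were the 10 with most reads, the 6 highest and 6 lowest of each comparison, measured members of the list around CDK4 and MDM2, extremes of the other lists, longest runs and genes with opposed circRNAs; others were added after their values were seen. One host gene that the rule names is not reported here. Alternatives were other filters, pseudocounts, scalings, thresholds and stretches.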

Additional observations from a re-analysis of the deposited data

Results flagged for a closer look

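TPCN1 stood on opposite sides of SV-HUC-1 in the cancer lines, with a log2 fold of 1.19 in J82 and -1.26 in T24 (10, 23 and 3 reads in the order SV-HUC-1, J82, T24). It was the 1 host gene of chromosome 12, of 107 measured against SV-HUC-1 in both lines, that was at least 2-fold higher in one and at least 2-fold lower in the other, and the difference was not tested against replicates. The ratio of J82 to T24 was 6.93 (95% counting interval 2.09 to 36), while that of T24 to SV-HUC-1 took in 1 (0.35, 0.0619 to 1.36). In both lines 19 host genes were higher and 4 lower. The 2 comparisons share the SV-HUC-1 library, and such counts over the whole table are not given. These counts, with that of TPCN1, are therefore not read as a trait of the chromosome.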

How the results depend on the processing

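Counts of host genes on chromosome 12 moved with the read filter, in which the number measured also changes, and with the threshold. They stayed within 1.5 times under both other scalings and the smaller pseudocount. The deposited scale was 1 (SV-HUC-1), 1 (J82) and 1.01 (T24) times that of median-of-ratios scaling. Scaling to circRNA reads also lay close to it. Both scalings could therefore hardly move the counts, and nothing is drawn from that. Against SV-HUC-1, host genes higher in J82 numbered 90 without a filter, 29 with a filter of 20 reads, 32 with 5 times the pseudocount and 17 from 4-fold, and those lower 31, 6, 8 and 3. In T24 they numbered 67, 14, 20 and 10 higher and 40, 10, 12 and 5 lower, with 30 lower as single circRNAs. In J82 against T24 they numbered 66, 21, 28 and 15 higher and 37, 5, 10 and 2 lower, with 24 lower as single circRNAs. At 20 reads the share higher was 36.7% in J82 (17.8% over the table) and 23% in T24 (17.1%), and at 4-fold 13.4% (6.22%) and 8.47% (5.24%). The fit of both cancer lines against the lone SV-HUC-1 library gave 1 call in edgeR, against 1.26% of host genes over the table, and 0 in limma (12 and 5 at an unadjusted p under 0.05); it uses the folds by which the chromosome was chosen and takes different lines as replicates, so nothing is drawn from it. The median of the list around CDK4 and MDM2 kept its sign, between 1.32 and 1.43 in J82, 0.88 and 0.92 in T24 and 0.38 and 0.55 between the cancer lines. In stretches of 5 Mb, 12 of 75 medians had the other sign than their 10 Mb stretch, of which 2 had a 10 Mb median past 2-fold, in T24 from 15 to 20 Mb (-0.23) and in J82 against T24 from 80 to 85 Mb (-0.62). With a filter of 20 reads, 4 of 41 stretch medians turned sign and 5 of 11 past 2-fold were no longer so. Without the most abundant circRNA, 22 of 134 host gene folds turned sign, with CORO1C in T24 (-0.03) the 1 that had been at least 2-fold, and 8 of 47 were no longer at least 2-fold. The cause was not tested. No paired analysis was possible because each line has 1 library.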
